A study of Mus musculus with 24 samples.

Results

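Expression was examined for 47 interferon-stimulated genes of the mouse, listed as lying outside the IFIT, OAS, GBP, IRG, IRF, STAT and MHC families and taken by symbol from the deposited tables of an RNA sequencing study of the co-repressors CtBP1 and CtBP2 in macrophages. All 47 were found, among 22996 genes of the table for bone marrow-derived macrophages (BMDMs) and 54380 genes of the table for the J774.1 line. One of them, Ifi47, is itself a member of the IRG family of GTPases, and it is kept here because it is on the list. The list is no random sample of genes, since its members are known for responding to interferon.

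BMDMs, primary macrophages grown from the bone marrow of male C57BL6/N mice aged 6 to 12 weeks, had received control, Ctbp1 or Ctbp2 siRNA and then, for 4 h, either PBS vehicle or lipopolysaccharide (LPS) at 100 ng/ml, with 3 libraries in each of these 6 groups. J774.1, a macrophage line from a female BALB/c mouse, was either wildtype or a Ctbp1/2 double knockout line, 3 libraries each. All 6 J774.1 libraries were from cells given 100 ng/ml LPS for 4 h, so there is no J774.1 vehicle group and the LPS response of that line cannot be read. Every BMDM group carried an siRNA, and the labels do not say how many clones the knockout line represents or where its genes were edited. The labels call the replicates biological without saying whether they came from separate mice or cultures, so p-values measure the spread between these libraries, which may be technical.

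As background, LPS is sensed by TLR4, which through the adaptors TRIF and TRAM and the kinase TBK1 switches on interferon beta. Secreted interferon then binds the receptor IFNAR on the same and neighbouring cells, and the kinases at the receptor switch on a transcription factor complex that binds the interferon-stimulated response element (ISRE) in the promoters of target genes. The products of these genes sense viral nucleic acid, block viral entry or budding, tag proteins with the ubiquitin-like ISG15, or tune the response itself. In macrophages many are transcribed at a low level without any stimulus, kept up by small amounts of interferon. CtBP proteins do not bind DNA by sequence; partner factors bring them to genes, where they recruit chromatin-modifying enzymes.

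The members' promoters were examined in RefSeq sequences of build GRCm38.p6, from 250 bases before to 50 bases after each annotated start. The authors quantified against mm39, so these coordinates belong to the RefSeq table and not to the deposited files. Entries were found for 36 of the 47 members, with 51 starts. The ISRE core was searched on both strands as GAAA, then any 2 bases, then GAAA again. It was present at a start of 15 of the 36 members (41.7%), against 3.99% of the 27025 genes in the table. The core of the GAS element, known from genes that respond to interferon gamma, was searched as TTCNNNGAA, which reads the same on both strands, and it was present in 5 of the 36 members (13.9%), against 9.55% of all genes. A match is a description of letters and not a bound site. The last 150 bases before the start are shown for 7 promoters, 5′ to 3′ on the gene's own strand, with ISRE cores in capitals.

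The first set shows cores in genes whose levels are described below. Ddx60, which codes for a helicase that aids RNA sensing, lies at chr8:61927937-61928086 (plus strand) and has cores that begin at -53 and -19 from the start. Ifi205, Ifi203 and Mndal are p200 genes, a cluster coding for DNA-binding proteins, and lie at chr1:174031756-174031905 (minus strand), chr1:173942493-173942642 (minus strand) and chr1:173880188-173880337 (minus strand). Their cores begin at -134, -35 and -36. Ifi203 and Mndal have 2 annotated starts each, of which 1 is shown. Bst2, coding for tetherin, a protein that ties budding virus to the cell, lies at chr8:71537473-71537622 (minus strand) with overlapping cores that begin at -130 and -124.
Ddx60: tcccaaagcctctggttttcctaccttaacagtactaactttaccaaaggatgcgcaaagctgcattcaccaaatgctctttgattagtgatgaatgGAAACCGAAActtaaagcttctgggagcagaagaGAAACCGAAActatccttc
Ifi205: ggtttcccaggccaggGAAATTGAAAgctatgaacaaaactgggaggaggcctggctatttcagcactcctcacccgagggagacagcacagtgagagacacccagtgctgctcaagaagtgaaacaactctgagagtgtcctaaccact
Ifi203: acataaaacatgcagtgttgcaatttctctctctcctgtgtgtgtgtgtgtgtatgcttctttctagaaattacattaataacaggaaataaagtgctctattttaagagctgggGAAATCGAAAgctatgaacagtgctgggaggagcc
Mndal: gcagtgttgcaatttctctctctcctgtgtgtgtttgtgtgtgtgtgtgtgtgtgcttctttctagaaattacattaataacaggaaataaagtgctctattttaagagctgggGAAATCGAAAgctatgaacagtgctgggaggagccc
Bst2: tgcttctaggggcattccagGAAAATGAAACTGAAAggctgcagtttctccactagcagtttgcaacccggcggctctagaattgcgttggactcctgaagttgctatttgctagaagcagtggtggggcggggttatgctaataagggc

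The stretches of Ifi203 and Mndal share an identical run of 96 bases that holds the core, while the longest run that either shares with Ifi205 is 14 bases. The second pair holds no core in these windows and comes from 2 members whose levels went different ways with LPS. Slfn2, a Schlafen gene needed for immune cell quiescence, lies at chr11:83064962-83065111 (plus strand). Pml, the scaffold of PML nuclear bodies, lies at chr9:58249787-58249936 (minus strand).
Slfn2: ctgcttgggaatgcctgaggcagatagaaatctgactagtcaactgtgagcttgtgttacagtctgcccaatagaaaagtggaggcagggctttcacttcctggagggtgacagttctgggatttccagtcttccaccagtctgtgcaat
Pml: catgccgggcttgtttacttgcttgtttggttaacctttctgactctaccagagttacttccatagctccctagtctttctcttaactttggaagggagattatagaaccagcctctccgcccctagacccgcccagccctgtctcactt

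Of the 15 members with a core, 12 rose with LPS in control BMDMs and none fell. Of the 21 members with an entry and no core, 14 rose and 4 fell. Of the 11 without an entry, 9 rose and 1 fell. Of all tested genes 23.3% rose and 53.1% fell. Sp100 and Epsti1, among the 4 that fell, did not fall after median-of-ratios scaling. These counts describe the list and were not tested. The 11 members without an entry were Dhx58, Zbp1, Ifi204, Parp9, Parp14, Mx1, Mx2, Ly6e, Rtp4, Tor3a and Ifi27l2a.

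Values are in TPM, transcripts scaled to a fixed library total, a share of a library's RNA corrected for gene length. TPM keeps no sequencing depth, so counting error is unknown. In BMDMs the targeted transcripts were lower in every library that received the matching siRNA. Ctbp1 was at 59.4, 55.5 and 57.1 TPM with Ctbp1 siRNA in vehicle, against 143, 141 and 130.0 TPM in control. Ctbp2 was at 20.4, 16.9 and 17.2 TPM with Ctbp2 siRNA in vehicle, against 52, 51.6 and 54.2 TPM in control. In the double knockout line Ctbp1 fell to 21.3, 22.3 and 16.1 TPM from 156, 164 and 161 TPM. Ctbp2 was at 64.1, 61.5 and 63.6 TPM against 81.4, 74.4 and 78.7 TPM, a log2 change of -0.31 (limma adjusted p = 0.000723), so most of its transcript was still counted. Transcript levels do not show whether an edited gene still makes protein.

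All 6 macrophage markers were detected in each BMDM group, with a summed level of 4397 to 4999 TPM over the libraries. The summed markers of plasmacytoid dendritic cells, strong interferon producers, were 1.25 to 3 TPM from 4 of 6 genes listed in the table, and those of neutrophils 62.7 to 172 TPM. Those of conventional dendritic cells, mostly from Itgax, were 134 to 139 TPM with Ctbp2 siRNA in vehicle and 123 to 124 TPM in control vehicle. In J774.1 the macrophage sum was 1061 to 1124 TPM in the knockout and 1004 to 1024 TPM in wildtype, where Mertk was at 0. Within it Cd68 was higher in the knockout, at a mean of 614 against 514 TPM, while Adgre1, the F4/80 marker, was at 14.7 to 17.4 TPM in the knockout against 219.7 to 230.2 TPM in wildtype. The conventional dendritic cell sum was 5.99 to 9.02 TPM in the knockout, with Ccr7, Cd209a and Flt3 at 0, and 0.856 to 1.68 TPM in wildtype. Whether these differences had a part in the results below was not tested. In bulk RNA, fewer cells that express a gene and less of its RNA per cell cannot be told apart.

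The summed level of the 47 genes was higher in each LPS library than in the vehicle libraries, and higher in each knockout library than in wildtype. It was 5937 to 6629 TPM in the control vehicle libraries and 9577 to 10915 TPM in the control LPS libraries. With Ctbp1 siRNA it was 6032 to 6485 TPM in vehicle and 9109 to 9792 TPM in LPS. With Ctbp2 siRNA it was 7473 to 7860.4 TPM in vehicle, above each control vehicle library, and 10269.7 to 10719 TPM in LPS, within the range of the control LPS libraries. In J774.1 the sum was 6724 to 6863 TPM in wildtype and 9993 to 10622 TPM in the knockout. In vehicle, replicates 3 and 4 stood apart under every siRNA. Replicate 4 held the highest value of the 3 for 39 of the 47 members with control siRNA, 35 with Ctbp1 siRNA and 39 with Ctbp2 siRNA. Replicate 3 held the lowest for 35, 36 and 34. Over all genes tested, replicate 4 was highest for 33.9%, 37.6% and 34.6%, and replicate 3 lowest for 32.3%, 32.4% and 31.7%. Control LPS replicate 4 held the lowest value for 35 members and the highest for 7, against 23.3% and 57.4% of all genes tested. Ctbp1 siRNA LPS replicate 1 held the lowest for 36 members and the highest for 6, against 37.6% and 27.8%.

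**Figure D1:**
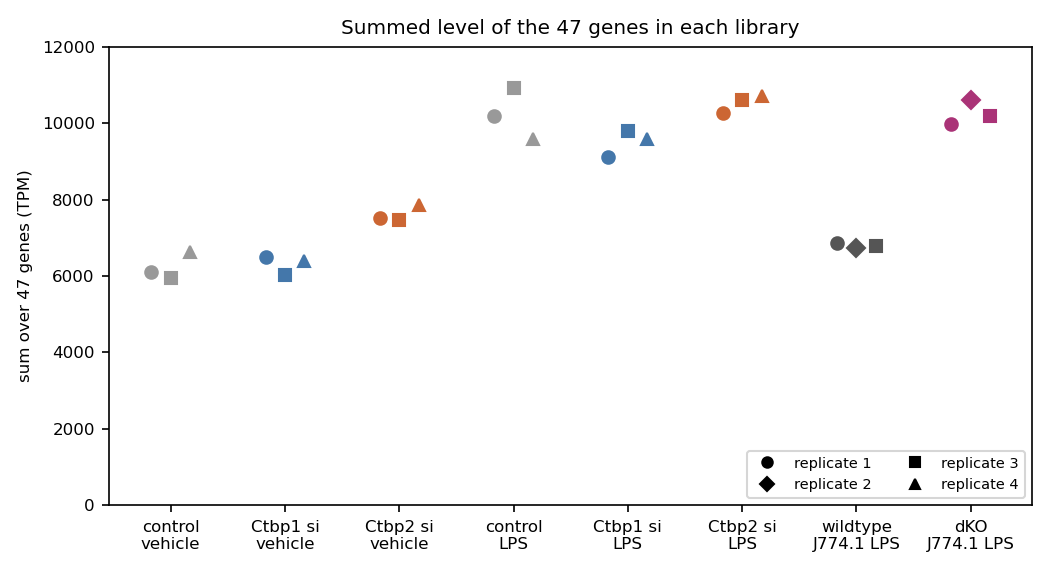
The summed TPM of the 47 genes (vertical axis, from 0) is plotted for each of the 24 libraries by group (horizontal axis), with the marker shape giving the replicate number. The Ctbp2 siRNA vehicle libraries (7473 to 7860.4 TPM) lie above the control vehicle libraries (5937 to 6629 TPM), and the knockout libraries lie above wildtype.

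The most abundant members in control BMDMs after LPS were Slfn2 at 1451 ± 154 TPM (SD, n = 3), the entry-blocking membrane genes Ifitm3 and Ifitm2 at means of 1013 and 755 TPM, and Ly6e at 522 ± 102 TPM. The least abundant were Ifi44 at 15.7 ± 2.42 TPM, Pml at 18.5 ± 1.57 TPM and Ddx60 at a mean of 19.3 TPM. Neighbours at the low end did not differ beyond their spread. Without LPS, Ifitm3, Ifitm2 and Ly6e led the order and Ifi205 came last at 1.33 ± 0.231 TPM.

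LPS in control BMDMs raised 35 of the 47 members and lowered 5 at an adjusted p under 0.05, where 23.3% of all 7918 tested genes rose and 53.1% fell. The fit was limma on log2(TPM + 1), with Benjamini-Hochberg adjustment over all tested genes, and every log2 change below is on that scale, which understates low genes. The median log2 change was 0.84 for the members and -0.21 for all genes. All 6 sensors rose, as did all 3 p200 genes of that group, all 4 PARP and DTX3L genes and all 4 Schlafen and SAMD9L genes. Of the restriction factors of the membrane and the dynamin-like Mx genes 4 of 6 rose, of the ISG15 and TRIM ligase group 3 of 5, of the nuclear body and PHF11 group 3 of 6, and of the remaining 13 genes 8. A rise of at least 2-fold was called for 20 members and for 7.12% of all genes. Genes entered the fit at a mean of 10 TPM or more over all BMDM libraries. Ifi205, Mx2 and Ifi44 had control vehicle means of 1.33, 4.14 and 5.15 TPM and entered through groups where they were higher. Their calls among the 35 thus depended in part on their rise.

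Ifi205 changed most. It was at 1.09, 1.35 and 1.55 TPM in the control vehicle libraries and at 349, 444 and 256 TPM with LPS. The log2 change was 7.20 ± 0.15 (SE). Ifi205 entered the fit only through its LPS libraries, so no p-value is given. Each LPS library was far above each vehicle library, and the same held under both other siRNAs. In the same cluster Ifi203 went from 68.8, 67.8 and 79.2 TPM to 364, 400.3 and 290.4 TPM (log2 2.26), and Mndal from 155, 136 and 182 TPM to 411, 451 and 302 TPM (log2 1.29). Ifi204, which codes for the DNA sensor p204, rose less, by 0.50. Between 21.9% and 34.6% of the 31-base words in the transcripts of these 4 genes occur in other genes too, so reads may be split among the family.

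Mx1 and Mx2 code for dynamin-like GTPases that trap viral components; in most laboratory strains, C57BL/6 and BALB/c among them, the Mx1 protein is not functional although its RNA is made. Mx1 was at 13.9, 11.5 and 18.8 TPM in vehicle and 189, 201 and 132 TPM in LPS, a log2 change of 3.48. Mx2 was at 3.65, 3.53 and 5.24 TPM and then 53.1, 49.4 and 31.8 TPM, a log2 change of 3.14. For both, the lowest LPS library, replicate 4, was still well above all vehicle libraries. Among the membrane restriction factors, Ifitm2 rose by 0.36 and Ifitm3 by 0.17, while Bst2 (-0.03) and Ly6e (-0.12) did not pass the test. The Ifitm3 call was lost when any of 5 of the 6 libraries was left out (highest limma adjusted p = 0.225).

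Ifih1, the double-stranded RNA sensor MDA5, was at 26.8, 25.8 and 29 TPM in vehicle and 185, 174 and 124 TPM in LPS (log2 2.50). Zbp1, a sensor of Z-form nucleic acid that can trigger necroptosis, rose by 1.52, the NFX1-type helicase gene Znfx1 by 0.90 and Ddx60 by 0.79. Dhx58, coding for the regulatory helicase LGP2, rose by 0.28, and that call was lost without control LPS replicate 3 or control vehicle replicate 3 (highest limma adjusted p = 0.145). Among the sensors the helicase that forms filaments on RNA thus had the largest estimate and its regulator the smallest.

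Slfn2 was at 283, 279 and 307 TPM in vehicle and 1554, 1526 and 1275 TPM in LPS, a log2 change of 2.32 (limma adjusted p = 1.71e-15). Parp14, a mono-ADP-ribosyltransferase, went from 72.6, 71.2 and 85.1 TPM to 359, 379 and 296 TPM (log2 2.16). Its chromosomal neighbours Dtx3l (1.42) and Parp9 (1.39), which code for partners in one ubiquitin ligase complex, rose as well. These 2 transcripts share 7.52% to 8.54% of their 31-base words with each other and the library kit kept no strand. Trim21, an antibody receptor in the cytosol and ubiquitin ligase, went from 23.7, 23.9 and 25.2 TPM to 114, 118 and 95.7 TPM (log2 2.12). Slfn8 rose by 1.92, Ifi47 by 1.66 and Herc6, the main ISG15 ligase of the mouse, by 1.64.

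The 5 members that fell with LPS were Pml, Trim25, Epsti1, Ifi27l2a and Sp100. Pml was at 32.2, 28.6 and 31.4 TPM in vehicle and 17.8, 20.3 and 17.4 TPM in LPS, a log2 change of -0.70 (limma adjusted p = 7.53e-06). Trim25, the ligase that activates the RNA sensor RIG-I, was at 125, 120.3 and 127 TPM and then 77.6, 78.4 and 73.5 TPM, a log2 change of -0.69. For both genes each LPS library was below each vehicle library. Epsti1 (-0.30), Ifi27l2a (-0.30) and Sp100 (-0.19), a PML body component, fell in TPM but not after median-of-ratios scaling. That scaling moved the median of all genes from -0.21 to 0.11, and under it 41 members rose and 2 fell, Pml and Trim25, beside 44.9% and 27.6% of all genes. Without control LPS replicate 1 or control vehicle replicate 4 the count that fell was 2 as well. The authors' deposited table has 41 members higher and 2 lower, with Pml at -0.40 and Trim25 at -0.37. Of its genes with an adjusted p, 25.8% were higher and 24.3% lower.

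**Figure D2:**
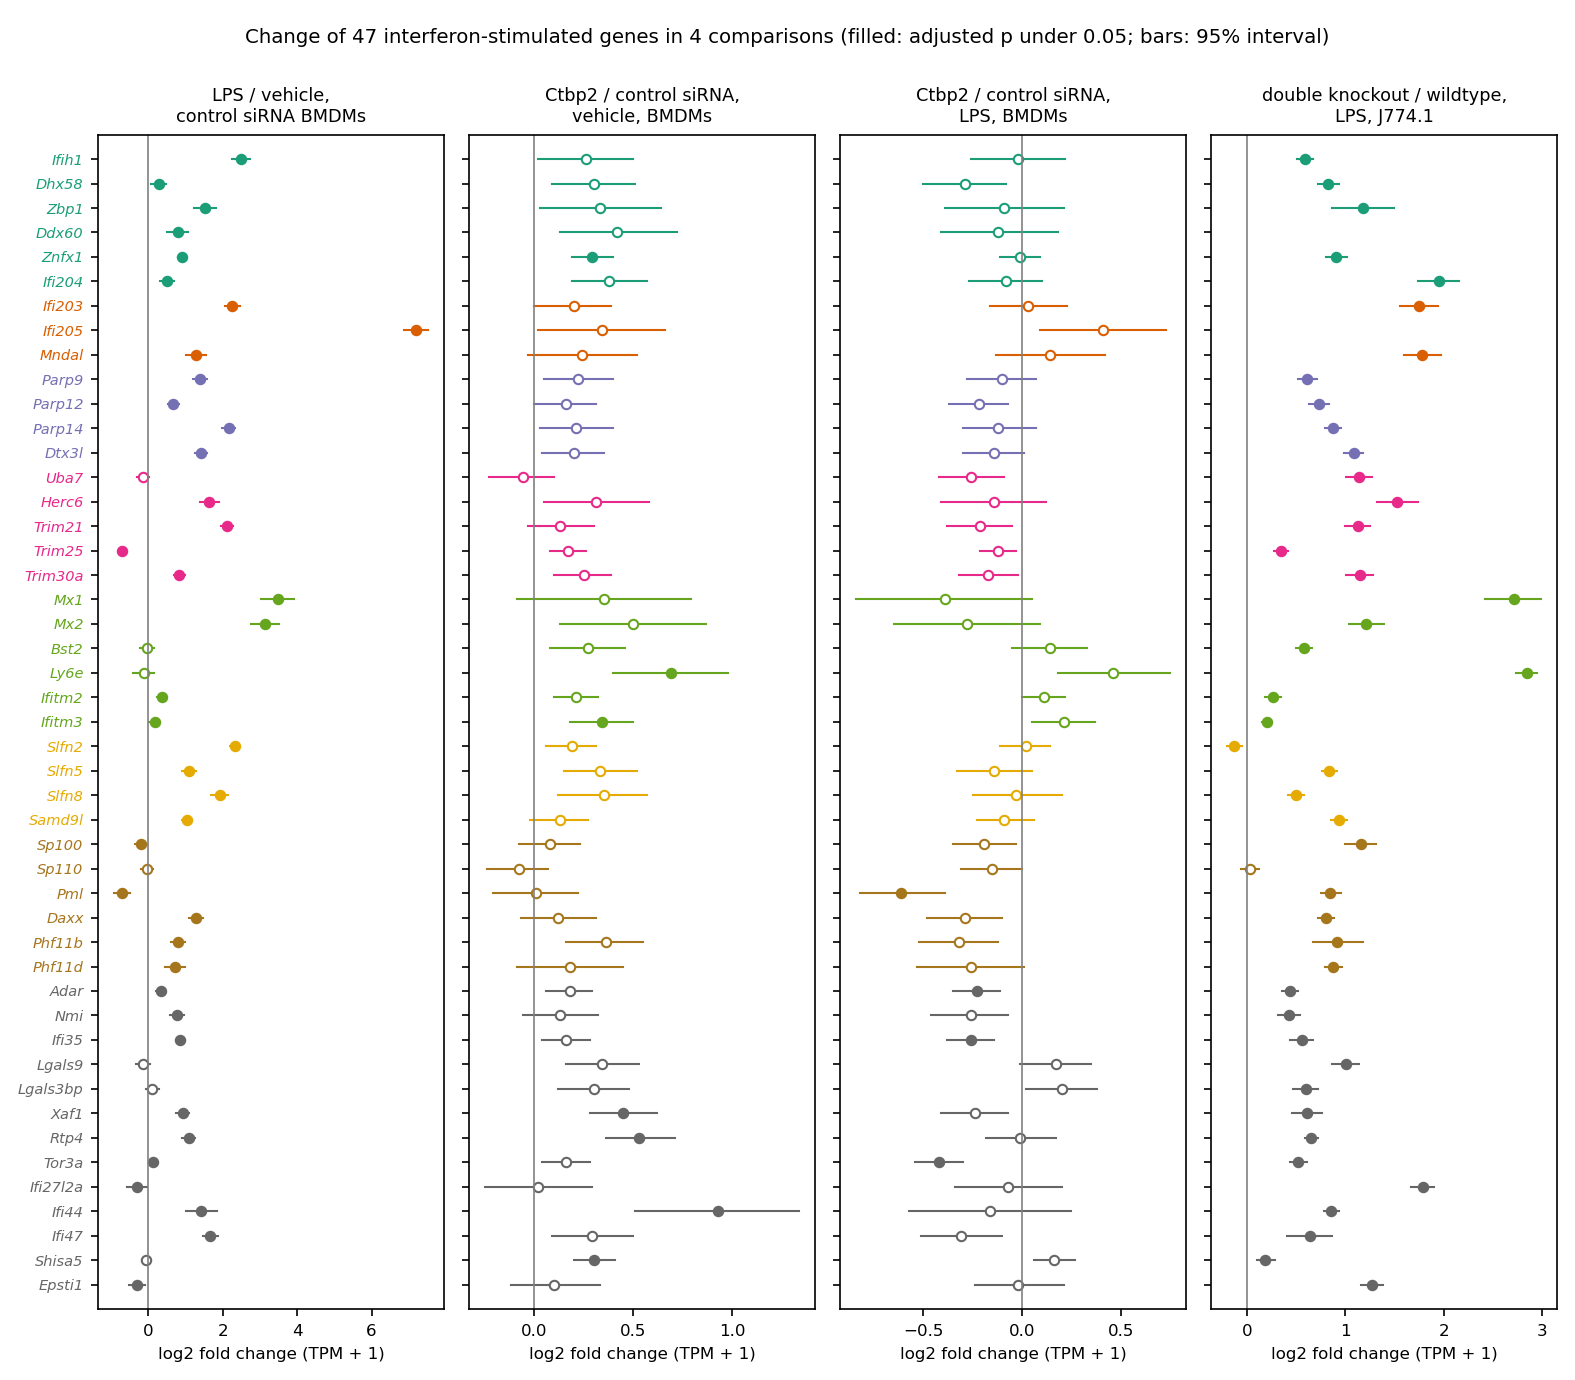
Each row is one of the 47 genes, coloured by role, and each panel one comparison, with the limma log2 fold change on the horizontal axis (scales differ between panels), 95% intervals as bars and filled points for an adjusted p under 0.05. In LPS the sensors and p200 genes lie to the right, in the second panel 45 of 47 points lie above 0 but 7 are filled, and in the knockout panel all but Slfn2 and Sp110 are filled to the right; Ddx60 and Ifi205 were not tested there.

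Under Ctbp1 siRNA LPS raised 32 members and lowered 7 (24.5% and 50.9% of all genes), and under Ctbp2 siRNA it raised 26 and lowered 11 (23.5% and 55.2%). The median log2 change of the members was 0.66 and 0.35, beside 0.84 with control siRNA, while that of all genes was -0.19, -0.23 and -0.21. Of the 47 members, 26 rose under all 3 siRNAs and 5 fell under all 3, the same 5 as in control. The share of all genes that rose or fell under all 3 is not given, so these counts only describe the list. Of the 9 members that rose with control but not Ctbp2 siRNA, Ddx60, Ifi204, Ifitm3, Phf11b, Phf11d, Adar and Ifi44 had estimates of -0.07 to 0.35 under Ctbp2 siRNA that did not pass the test. Dhx58 (-0.32) and Tor3a (-0.45) fell there, as did Uba7 (-0.33), Ly6e (-0.35), Lgals9 (-0.31) and Shisa5 (-0.20). Uba7 (-0.17) and Shisa5 (-0.30) fell under Ctbp1 siRNA too. After median-of-ratios scaling 38 members rose and 2 fell under Ctbp1 siRNA, and 37 rose and 2 fell under Ctbp2 siRNA, so most of the calls of a fall depend on the scaling. All genes then had 44.1% higher and 28.6% lower under Ctbp1 siRNA and 45.7% and 28.9% under Ctbp2 siRNA.

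**Figure D3:**
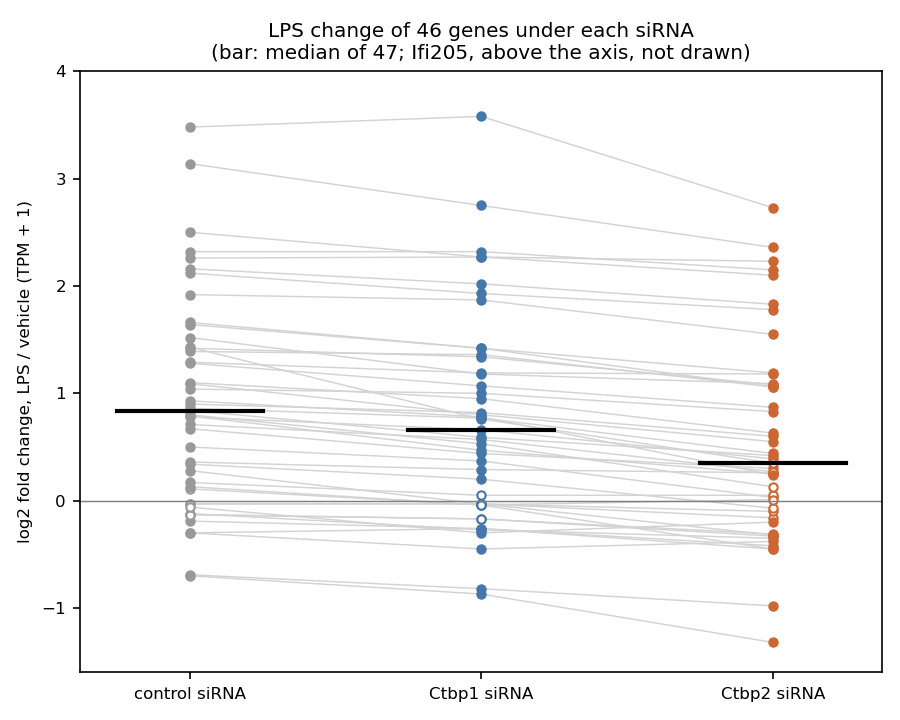
The log2 fold change of each gene with LPS (vertical axis) is drawn for control, Ctbp1 and Ctbp2 siRNA (horizontal axis), a grey line joining each gene, filled points marking an adjusted p under 0.05 and black bars the medians of 47 genes (0.84, 0.66 and 0.35). Ifi205, at 7.20, 7.16 and 7.27, lies above the axis and is not drawn.

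The difference between LPS responses was tested as an interaction. For Ctbp2 against control siRNA, 46 of the 47 estimates were negative, with a median of -0.34 beside -0.02 for all genes, of which 42.6% were positive. Of the members, 2 were called lower and none higher, where 0.0884% of all genes were lower and 0.0126% higher. Tor3a, coding for an ATPase of the endoplasmic reticulum, was at 84.3, 80.8 and 83.5 TPM in control vehicle and 93.4, 84.5 and 95.1 TPM in control LPS. With Ctbp2 siRNA it was at 93.2, 87.7 and 97.7 TPM in vehicle and 68.7, 63.5 and 71.1 TPM in LPS, so each library with both Ctbp2 siRNA and LPS was below each library of the other groups. Its interaction was -0.58 ± 0.08 (SE, limma adjusted p = 0.00891), and it remained called without each of the 12 libraries, after median-of-ratios scaling (adjusted p = 0.0117) and with only the groups compared (adjusted p = 0.0325).

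Xaf1, coding for a partner of the apoptosis inhibitor XIAP, had the other called interaction, -0.69 ± 0.11 (SE, limma adjusted p = 0.0236). It rose from 72.2, 63.9 and 74.2 TPM to 138, 146 and 119 TPM with control siRNA, and from 96.2, 88.7 and 104 TPM to 106, 115 and 119 TPM with Ctbp2 siRNA. That call remained in 5 of 12 fits that left out a library and was lost after median-of-ratios scaling (adjusted p = 0.0694). Control LPS replicate 4 held the lowest level of its group for 35 members. Without it 13 members had a lower LPS response with Ctbp2 siRNA, and without control vehicle replicate 4 there were 7. For fits that left out a library, here and below, the share of all genes called is not given. A general gain in calls therefore cannot be told apart from one of these members. The interaction of Ctbp1 siRNA with LPS, set against the same control libraries, called no member by limma. Still, 42 of the 47 estimates were negative, with a median of -0.14, where 57.1% of all genes were positive. Of all genes 0.0126% were called higher and 0% lower. Between the 2 siRNAs the LPS response was lower with Ctbp2 for 42 of 47 members, where 35.4% of all genes were higher. None of these differences was called by limma (lowest adjusted p = 0.295), nor was any other gene.

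Ctbp1 siRNA changed no member by limma in either condition. In vehicle the estimates ran from -0.40 to 0.21 with 26 above 0. Of all genes 0.0505% were called higher and 0.164% lower (with median-of-ratios scaling, 0.126% and 0.114%). In LPS the estimates ran from -0.46 to 0.03 with 45 below 0. Of all genes 0.0253% were called higher and 0.126% lower (with that scaling, 0% and 0.126%). The median in LPS was -0.15 for members and 0.01 for all genes. Without control LPS replicate 4, 3 members were lower with Ctbp1 siRNA in LPS. The authors' deposited fit has 1 member higher with Ctbp1 siRNA in vehicle, as median-of-ratios scaling did here, and none that differs in LPS. Of the genes with an adjusted p in that fit, 1.11% were higher and 0.609% lower in vehicle, and 0.121% and 0.156% in LPS.

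Ctbp2 siRNA in vehicle raised 7 members and lowered none, where 0.505% of all genes rose and 0.518% fell (with median-of-ratios scaling, 1.02% and 0.278%, and 10 members higher). The estimates of 45 members were above 0, as were 36.2% of all genes, with a median of 0.25 beside -0.03 for all genes. In 26 members each Ctbp2 siRNA library was above each control library, against 7.03% of all genes. The 40 others had estimates of -0.08 to 0.50.

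Rtp4, coding for a receptor chaperone that also restrains interferon responses, was at 202, 205 and 237 TPM with Ctbp2 siRNA in vehicle and 143, 138 and 163 TPM in control, a log2 difference of 0.53 ± 0.08 (SE, limma adjusted p = 0.00663). With Ctbp1 siRNA it was at 172, 141 and 171 TPM. Shisa5, coding for a membrane protein of the endoplasmic reticulum, was at 526, 537 and 543 TPM against 434, 425 and 441 TPM, a difference of 0.30 (limma adjusted p = 0.00818). The groups did not overlap for either gene, and both remained called without each library. Shisa5 with Ctbp1 siRNA was at 506, 494 and 508 TPM, also above each control library, with an estimate of 0.21 that did not pass the test (limma adjusted p = 0.0988).

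Ifi44, coding for a cytosolic protein with antiviral activity, had the largest estimate, 0.93 (limma adjusted p = 0.0295), at 11.6, 9.64 and 10.8 TPM against 4.87, 4.65 and 5.94 TPM. Ly6e, a GPI-anchored surface protein that limits coronavirus entry, was at 873, 931 and 917 TPM against 535, 548 and 603 TPM, a difference of 0.69 (limma adjusted p = 0.0247). Both calls were lost when any of 5 libraries of the 2 groups was left out, with adjusted p up to 0.129 and 0.107. Xaf1 differed by 0.45, Ifitm3 by 0.34 and Znfx1 by 0.29. The Ifitm3 call was lost without each of the 6 libraries in turn (adjusted p up to 0.135), that of Xaf1 without 3 of them, Ctbp2 siRNA replicates 1 and 4 and control replicate 3, and that of Znfx1 without control replicate 1 (adjusted p = 0.0508). The count of members called was 3 without Ctbp2 siRNA replicate 1 or 4 or control replicate 1 or 3, 4 without Ctbp2 siRNA replicate 3, and 15 without control LPS replicate 4, a library outside this comparison that enters the shared estimate of spread. The authors' deposited table has 19 members higher and none lower, Bst2 (0.31), Lgals9 (0.39) and Ifi204 (0.43) among them. Of its genes with an adjusted p, 2.03% were higher and 0.817% lower.

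Against Ctbp1 siRNA in vehicle, which uses the same Ctbp2 siRNA libraries, 5 members were higher and none lower, where 0.518% of all genes were higher and 0.429% lower (0.707% and 0.303% when scaled by median of ratios). They were Xaf1 (0.51), Ifitm3 (0.42), Rtp4 (0.41), Ifitm2 (0.25) and Znfx1 (0.23). All 47 estimates were above 0, as were 37.8% of all genes. In 32 members each Ctbp2 siRNA library was above each Ctbp1 siRNA library, against 7.3% of all genes. The Xaf1 call remained without each library, and the others did not. The count was 2 without Ctbp1 siRNA replicate 3 or Ctbp2 siRNA replicate 4, 3 without Ctbp2 siRNA replicate 1, and 13 without control LPS replicate 4.

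**Figure D4:**
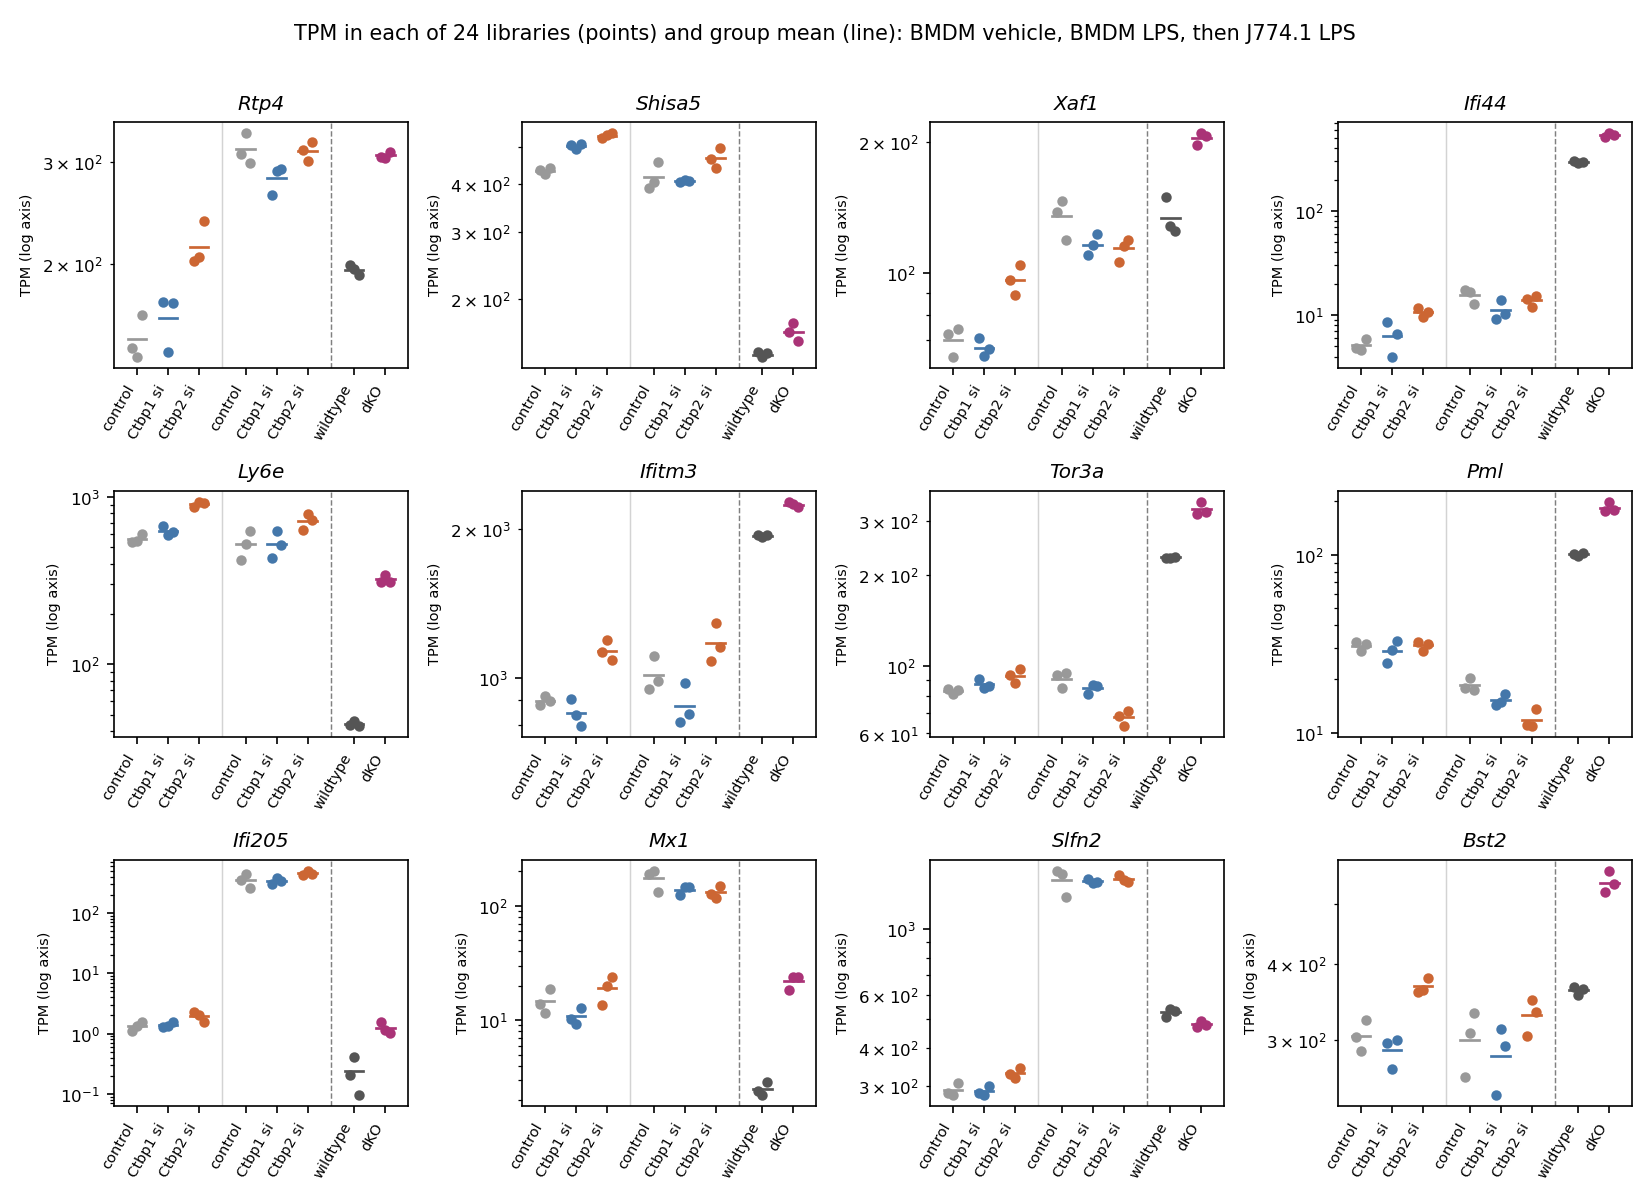
TPM of 12 of the genes (vertical log axes) in each of the 24 libraries (points, in replicate order) with the group mean as a line, BMDM vehicle groups first, then BMDM LPS groups, then J774.1. Rtp4, Shisa5, Ifi44, Ly6e and Xaf1 are higher with Ctbp2 siRNA than control in vehicle, Tor3a and Pml are lower with it in LPS, and Slfn2 is the one gene of the 12 that is lower in the knockout.

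With LPS present, Ctbp2 siRNA lowered 4 members and raised none, where 2.4% of all genes fell and 0.77% rose (when scaled by median of ratios, 0.796% and 2.02%, with 2 members lower and 2 higher). Of the estimates 36 were below 0 and 11 above, where 30.9% of all genes were above 0, and the median was -0.12 beside -0.05 for all genes. Pml was at 11.1, 10.9 and 13.5 TPM against 17.8, 20.3 and 17.4 TPM in control, a log2 difference of -0.61 ± 0.10 (SE, limma adjusted p = 0.00471). Tor3a was at 68.7, 63.5 and 71.1 TPM against 93.4, 84.5 and 95.1 TPM, a difference of -0.42 ± 0.06 (SE, limma adjusted p = 0.000722). For both the groups did not overlap, and both remained called without each library. Ifi35 (-0.26), coding for a partner of NMI, and Adar (-0.23), the RNA-editing enzyme, lost the call after median-of-ratios scaling and when 2 or 4 single libraries were left out. When only the groups compared were fitted, none of the 4 was called.

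Same-numbered control and Ctbp2 siRNA libraries deviated together in LPS, so the pairing was also fitted as a replicate block. The block called 5 members lower and 3 higher. Uba7 (-0.26, limma adjusted p = 0.0174) joined the 4 that were lower. Ly6e (0.46, limma adjusted p = 0.0312), Ifitm3 (0.21, adjusted p = 0.0422) and Shisa5 (0.16, adjusted p = 0.0351) were higher. The share of all genes called under the block is not given. A general gain in calls therefore cannot be told apart from one of these members. The authors' deposited table has 5 members higher, these 3 with Lgals9 and Lgals3bp, and 2 lower, Pml at -0.58 and Tor3a at -0.35. Of its genes with an adjusted p, 2.73% were higher and 1.5% lower. Without control LPS replicate 4, limma called 9 lower and 2 higher, and without replicate 3 of either group 2 lower. Against Ctbp1 siRNA in LPS, Ifitm3 (0.42), Ifitm2 (0.22) and Shisa5 (0.19) were higher and Tor3a (-0.32) was lower, where 1.31% of all genes were higher and 5.48% lower (when scaled by median of ratios, 2.78% and 1.38%, with 6 members higher). The Ifitm3 and Tor3a calls remained without each library, while Shisa5 and Ifitm2 lost theirs, with adjusted p up to 0.0958 and 0.1, and the count higher was 1 without Ctbp1 siRNA replicate 4 or Ctbp2 siRNA replicate 1. Without control LPS replicate 4 it was 5 higher and 3 lower, and without Ctbp2 siRNA replicate 4 it was 2 lower.

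Ctbp1/2 double knockout J774.1 cells had more RNA of nearly the whole list. Of the 45 members tested, 43 were higher than in wildtype and 1 lower, where 25.4% of 7782 tested genes were higher and 16.6% lower. When scaled by median of ratios, those shares were 19.2% and 25.9%, and the members' counts were still 43 and 1. The median log2 difference was 0.85 for the members and 0.03 for all genes, and 16 members but 2.33% of all genes were called higher by 2-fold or more. Every tested gene of the sensor, p200, PARP, ligase and membrane groups was higher. All 44 calls remained under each alternative in which the gene was tested. Mx1 fell below the level filter without knockout replicate 2 or 3. Mx1, Herc6 and Phf11b had wildtype means of 2.51, 9.15 and 8.74 TPM and entered the fit through the knockout libraries. Their calls among the 43 thus depended in part on that difference.

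Ly6e was at 310.1, 344 and 311 TPM in the knockout and 43.3, 46 and 42.8 TPM in wildtype, a log2 difference of 2.84 ± 0.05 (SE, limma adjusted p = 3.3e-09). Mx1 was at 18.2, 23.8 and 24 TPM against 2.39, 2.22 and 2.91 TPM (2.71), and Mx2 differed by 1.21. Ifi204 was at 52.7, 62.6 and 57.1 TPM against 14.7, 12.5 and 15.4 TPM (1.95). Ifi27l2a, coding for a small hydrophobic interferon-induced protein, was at 83.6, 79.3 and 77.4 TPM against 23.4, 21.6 and 22.5 TPM (1.79). In each of these genes the lowest knockout library was above the highest wildtype library.

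Of the p200 genes, Mndal was at 305, 321 and 306 TPM against 101, 78.4 and 91.2 TPM (1.78), and Ifi203 at 94.2, 103 and 104 TPM against 29.9, 25.6 and 32.3 TPM (1.75). Herc6 differed by 1.53, Epsti1 by 1.27, Zbp1 by 1.18, Sp100 by 1.16 and Trim30a by 1.15. Uba7, the enzyme that activates ISG15, differed by 1.14 and was at 126, 136 and 142 TPM against 64.2, 59.9 and 57 TPM. Lgals9, coding for galectin-9, differed by 1.01. At the low end Ifitm2 (0.27), Ifitm3 (0.21) and Shisa5 (0.19) were higher by less than 1.5-fold.

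Slfn2 was the one member that was lower, at 471, 494 and 479 TPM against 507, 541 and 532 TPM, a difference of -0.13 ± 0.03 (SE, limma adjusted p = 0.0127). Its neighbour Slfn8 was higher by 0.50 and Slfn5 by 0.84. Sp110 did not differ by the test, at 115, 118 and 125 TPM against 115, 118 and 118 TPM (0.03, 95% interval -0.06 to 0.12). In Sp110 55.5% of 31-base words occur in other genes, as do 55.5% in Ifitm2 and 62.9% in Phf11b, so values of these 3 are uncertain. Ifi205 and Ddx60 were below the filter of a mean of 10 TPM. Ifi205 was at 1.56, 1.13 and 1.02 TPM in the knockout and 0.207, 0.403 and 0.0956 TPM in wildtype, and Ddx60 at 8.99, 10.6 and 10.1 TPM against 1.57, 1.79 and 1.53 TPM. The authors' deposited table has both higher in the knockout, 45 members higher in all and 1 lower. Of its genes with an adjusted p, 16.6% were higher and 17.2% lower.

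The genes upstream were read in a list of 14 interferon and receptor signalling genes. In the knockout, 25.4% of all genes were higher and 16.6% lower. Of the 13 tested on this list 10 were higher, among them Irf1 (1.62), Stat2 (1.42) and Irf7 (0.80), and 1 was lower. That was Ifnb1, interferon beta itself, at 13.6, 11.7 and 13.5 TPM against 36.4, 34.1 and 36.7 TPM (log2 -1.40, limma adjusted p = 1.04e-06). The knockout libraries thus had less Ifnb1 RNA and more RNA of 43 members at this one time point. Of 8 genes between LPS and interferon, 6 were tested. Ikbke (0.29) and Tbk1 (0.20, limma adjusted p = 0.0417) were higher and the LPS co-receptor Cd14 (-0.86) lower, not far from the shares of all genes. In BMDMs Ifnb1 was at 0 in every vehicle library and between 0.432 and 1.94 TPM in LPS, below the filter. With Ctbp2 siRNA in vehicle, 2 of the 12 tested signalling genes were higher, Isg15 (0.64, limma adjusted p = 0.0435) among them, where 0.505% of all genes rose. With LPS in control BMDMs 8 of 12 were higher, led by Isg15 (3.53) and Irf1 (3.17), and Irf3 was lower. Of all genes 23.3% rose there and 53.1% fell.

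All 7 members that rose with Ctbp2 siRNA in vehicle, and all 5 that fell with LPS in control BMDMs, were among the 43 higher in the knockout, which takes in nearly every tested member. Of the 35 that rose with LPS, 32 were higher in the knockout, Slfn2 was lower, and Ifi205 and Ddx60 were not tested. Uba7, Bst2, Ly6e, Lgals9, Lgals3bp and Shisa5 were not called with LPS and were higher in the knockout. The 2 cell types also differed in which members they expressed after LPS, though their tables were scaled separately and were not tested against each other. Ifi205 had a mean of 349.8 TPM in control BMDMs and 0.235 TPM in wildtype J774.1, and Mx1 had 174 and 2.51 TPM. Ifi44 went the other way, with 15.7 and 297 TPM, as did Pml with 18.5 and 101 TPM.

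**Figure D5:**
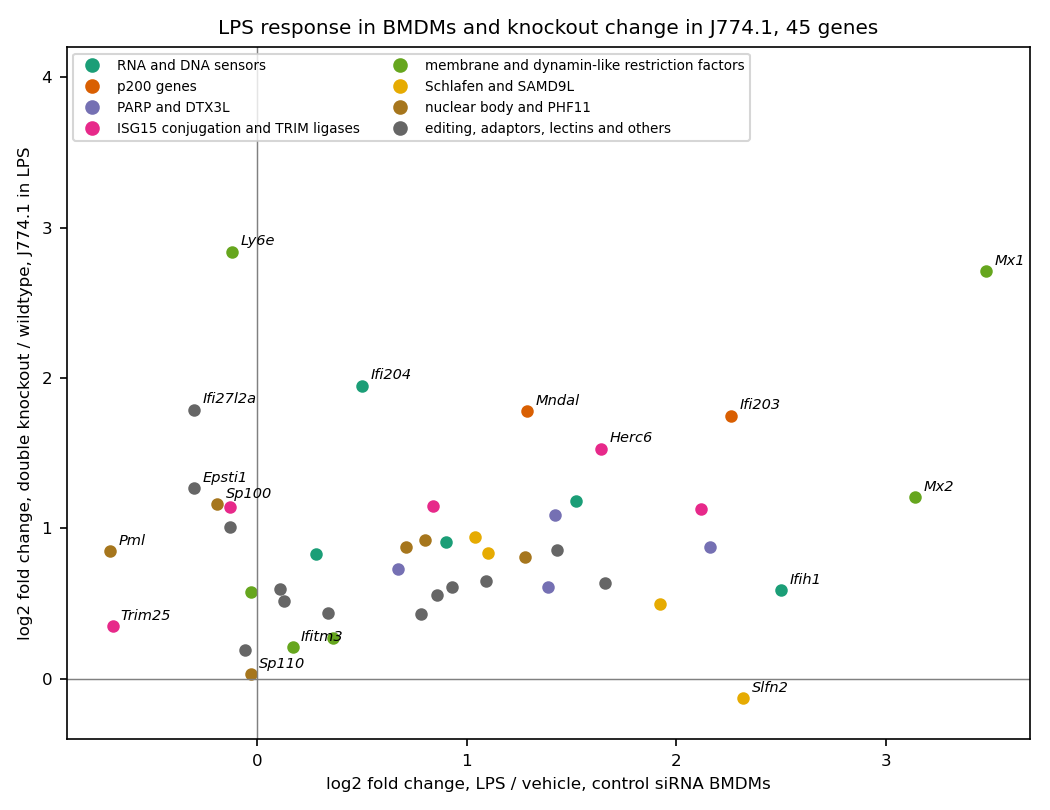
For the 45 tested genes, coloured by role, the log2 fold change with LPS in control siRNA BMDMs (horizontal axis) is set against the log2 difference of double knockout and wildtype J774.1 cells in LPS (vertical axis); the comparisons share no library. Ly6e, Mx1 and Ifi204 have the largest knockout differences at LPS changes of -0.12, 3.48 and 0.50, and Slfn2, at 2.32 with LPS, lies below 0 in the knockout.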

How the data were processed

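Polyadenylated RNA of 18 BMDM and 6 J774.1 libraries was sequenced after an unstranded kit, per the labels' protocols, on either of a pair of instruments; which library ran on which is not given in the sources used here. Per the file headers, the authors' BMDM table holds gene-level scaled TPM from Salmon on mm39; the J774.1 header names no tool or build. The tools Salmon 1.9.0 and DESeq2 1.44.0 are named in the submitters' processing notes. The authors' deposited tables also hold, from DESeq2, each gene's log2 fold change with its raw and adjusted p-value, and a mean normalized count (signal) per gene, which was not used. TPM sums were 999839 to 999944 in BMDM and 999503 to 999526 in J774.1 libraries, and 190 repeated identifiers of the J774.1 table, with identical TPM, were counted once.

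limma 3.58.1 in R 4.3.3 (lmFit, eBayes with trend and robust) was run on log2(TPM + 1) for genes averaging 10 TPM or more, 7918 in BMDMs and 7782 in J774.1. The 18 BMDM libraries were fitted together, 1 coefficient per group. The 12 planned comparisons and the interaction between both siRNAs, added after the data were seen, were each adjusted by Benjamini-Hochberg and called at 0.05. On simulated data 89% of changes of 0.5 log2 were recovered for Ctbp2 siRNA in vehicle (7918 genes) and 88% for the knockout (7782 genes). Of the calls there, 5.56% and 4.64% were false. The simulated noise was independent for each gene and library, without shifts shared by a library like those of the vehicle replicates. These shares may therefore not hold for the real libraries. The members and lists were chosen with earlier results of these data known. The rule for named genes was up to 10 called members with the largest change in each direction of a comparison, and Ctbp1 and Ctbp2; other members are named as examples of counts. Deviations of same-numbered libraries correlated at 0.103, 0.111 and 0.191 between control and Ctbp2 siRNA in LPS. That was the one compared pair of groups with all 3 above 0.1. BMDM replicate numbers are those of the titles (1, 3 and 4). The alternatives were a pseudocount of 0.1, a filter at 1 TPM, median-of-ratios scaling, the replicate block, fitting only the groups compared, and leaving out each library. Of these, only median-of-ratios scaling has the share of all genes called given beside the members' counts. A gene of the signalling list is not reported here by name.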

Additional observations from a re-analysis of the deposited data

Results flagged for a closer look

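The response to LPS differed between Ctbp2 and control siRNA for 2 members by the test of the interaction itself. Tor3a had an interaction of -0.58 on the log2 scale (limma adjusted p = 0.00891), with a range of -0.63 to -0.54 over 12 fits that each left out 1 library and an adjusted p of 0.00324 to 0.0381. Its mean TPM was 82.9 in control vehicle, 91 in control LPS, 92.8 with Ctbp2 siRNA in vehicle and 67.8 with Ctbp2 siRNA in LPS. Xaf1 had an interaction of -0.69 (limma adjusted p = 0.0236), with a range of -0.78 to -0.63 and an adjusted p of 0.00588 to 0.102 over the same fits. Its mean TPM was 70.1, 135, 96.4 and 114 in those 4 groups. Neither difference was called between Ctbp2 and Ctbp1 siRNA, where the interactions were -0.41 for Tor3a and -0.54 for Xaf1 (limma adjusted p = 0.295 for each).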

How the results depend on the processing

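Median-of-ratios scaling moved the LPS comparisons, where the median of all genes went from -0.21 to 0.11 with control siRNA. Under it the sign of the log2 change turned and a call was gained or lost for Uba7 0.19, Bst2 0.30, Sp100 0.14, Sp110 0.29, Lgals9 0.19, Ifi27l2a 0.03, Shisa5 0.27, Epsti1 0.02 with control siRNA, Dhx58 0.26, Uba7 0.12, Bst2 0.26, Sp100 0.03, Sp110 0.27, Lgals3bp 0.26, Tor3a 0.25, Epsti1 0.03 with Ctbp1 siRNA, and Dhx58 0.04, Uba7 0.03, Bst2 0.20, Ly6e 0.01, Sp110 0.26, Adar 0.28, Lgals9 0.05, Shisa5 0.16 with Ctbp2 siRNA. Members lower with LPS became 2 in each. Members called under that scaling were 1 higher for Ctbp1 siRNA in vehicle, 2 higher and 2 lower for Ctbp2 siRNA in LPS, 6 higher for Ctbp2 against Ctbp1 siRNA in LPS, and 1 lower for the Ctbp2 interaction. The replicate block gave 12 higher for Ctbp2 siRNA in vehicle, 1 higher for Ctbp1 siRNA in vehicle and 3 higher for Ctbp2 siRNA in LPS. For Ctbp2 against Ctbp1 siRNA it gave 8 higher in vehicle, and 5 higher and 2 lower in LPS. The shares of all genes called under the block are not given. Apart from control and Ctbp2 siRNA in LPS, no compared pair of groups had all 3 correlations of deviations above 0.1. Control and Ctbp1 siRNA in vehicle had 0.278, 0.0812 and 0.148. These correlations are over all tested genes, while in vehicle replicate 4 was highest and replicate 3 lowest for most members under every siRNA. Fitting only the groups compared gave 1 higher for Ctbp1 siRNA in vehicle, 0 lower for Ctbp2 siRNA in LPS and 1 lower for the Ctbp2 interaction, with fewer libraries behind the spread. A pseudocount of 0.1 gave 2 lower for Ctbp2 against Ctbp1 siRNA in LPS. Over fits that left out 1 library, members lower with LPS ranged from 2 to 6 (control) and members higher from 0 to 1 for Ctbp1 siRNA in vehicle. Lower members ranged from 0 to 3 for Ctbp1 siRNA in LPS. For Ctbp2 siRNA, 3 to 15 were higher in vehicle, and 0 to 2 higher and 2 to 9 lower in LPS. Against Ctbp1 siRNA, 2 to 13 were higher in vehicle, and 1 to 5 higher and 1 to 3 lower in LPS. The Ctbp2 interaction had 1 to 13 lower, and its difference from Ctbp1 0 to 2 lower. For siRNA comparisons and interactions with a range, the highest count came without control LPS replicate 4. In the knockout 42 to 43 members were higher and 1 lower. The cause was not tested.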
